A study of Homo sapiens with 8 samples.

Results

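Aldehyde dehydrogenases oxidize reactive aldehydes to carboxylic acids with NAD+ or NADP+. The family members described here make retinoic acid from retinaldehyde (ALDH1A1 and ALDH1A3), clear acetaldehyde in mitochondria (ALDH2 and ALDH1B1), oxidize aromatic and fatty aldehydes (ALDH3A1, ALDH3A2, ALDH3B1 and ALDH3B2) or act in lysine breakdown (ALDH7A1). High aldehyde dehydrogenase activity is widely used to mark stem-like and drug-tolerant subpopulations of lung cancer cells. The 9 genes were taken by symbol, through the gene identifiers of GENCODE release 44, and all 9 were among the 43869 genes with values. In 8 of them the RNA level reached the log2 of 25 reads, 4.64, in at least 1 library, which 12701 genes did in all and which is called expressed below. These 9 genes were paired with 94 of the 126470 H3K27ac peaks, a peak being paired with every gene at most 20 kb away.

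The 4 lines compared were treatment-naive H3122 cells (H3122p), a lung cancer cell line driven by the fusion kinase EML4-ALK, and 3 lines evolved from it under ALK inhibitors: erCriz0 under crizotinib, erAlec0 under alectinib and erLor0 under lorlatinib. The resistant lines were raised under stepwise increasing inhibitor and are labelled with final concentrations of 0.5 µM for erCriz0 and 2 µM for both erAlec0 and erLor0, whereas the naive cells had no inhibitor. RNA was collected after a period without inhibitor, and the ChIP-seq cultures of all 4 lines are labelled as kept in RPMI medium with serum and treated with DMSO. Each line gave 1 RNA-seq library and 1 library of H3K27ac, an acetylation mark of active promoters and enhancers, so no difference below has a replicate check or a p-value. Because each inhibitor is also represented by 1 evolved line, the effect of the inhibitor and the history of that line cannot be told apart. All 3 comparisons share the naive libraries, so a deviation of these would enter every difference.

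Levels are rlog values, log2 normalized read counts that are drawn toward the gene's mean where reads are few, and the depth of each library is unknown. A difference is the level in a resistant line minus that in naive cells, and "rose" and "fell" are kept for differences of at least 1 in size. Groups of 4 values are always given for naive, erCriz0, erAlec0 and erLor0 cells in that order, and groups of 3 for erCriz0, erAlec0 and erLor0. The median level of expressed genes lay between 8.09 and 8.14 in the 4 RNA libraries, and that of all peaks between 4.02 and 4.13 in the 4 ChIP-seq libraries. Of 8 lung epithelial markers 6 were expressed, among them NKX2-1 at RNA levels of 8.68, 8.67, 9.13 and 9.18 and EPCAM at 12.34, 12.64, 12.54 and 12.51, while the alveolar markers NAPSA and SFTPB stayed below 4.64. Of the 8 markers of blood, endothelial and stromal cells with values, COL1A1 alone was expressed, at 9.49, 9.71, 9.99 and 10.08, and the leukocyte marker PTPRC was listed at 0 in all 4 libraries. In such bulk samples fewer cells expressing a gene and less RNA per cell cannot be told apart.

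RNA of the expressed aldehyde dehydrogenases differed from naive cells by less than 1, apart from ALDH3B1 in erCriz0 cells. In erCriz0 cells 1 of the 8 expressed members fell, where 1.65% of all expressed genes fell, and 0 rose, where 2.65% did. In erAlec0 cells 0 rose and 0 fell, beside 2.46% and 2.07% of expressed genes. In erLor0 cells the counts were also 0 and 0, beside 1.10% and 0.740%. The median difference of the 8 members stood at −0.30, −0.24 and 0.10, while that of all expressed genes was −0.02, 0.00 and −0.0043. Relative to naive cells 5, 6 and 3 of the members were lower. The range over the 4 libraries passed 1 for 3 members, ALDH3B1 (1.90), ALDH3A1 (1.15) and ALDH2 (1.15).

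**Figure D1:**
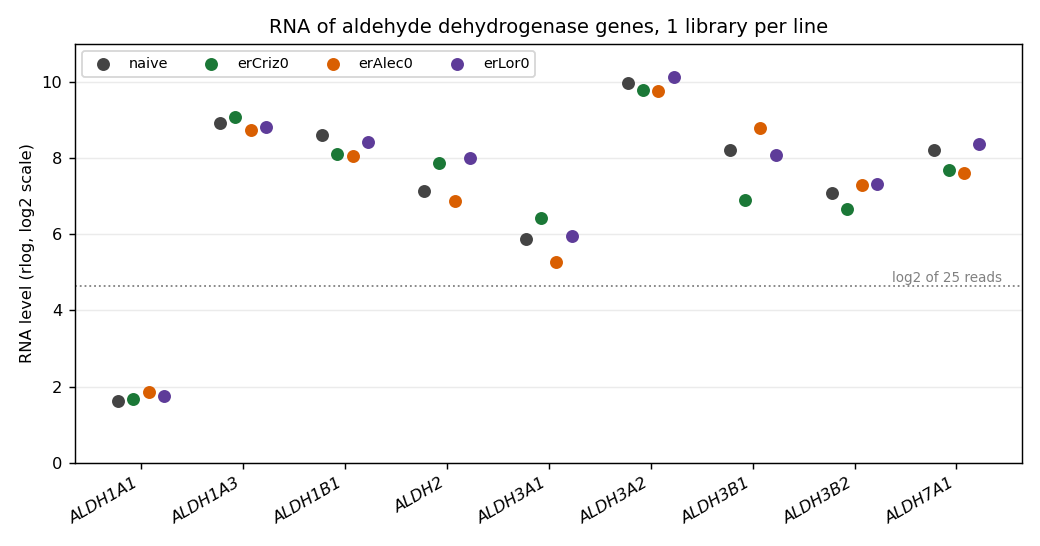
RNA levels (rlog, log2 scale, y axis) of the 9 aldehyde dehydrogenase genes (x axis) in naive, erCriz0, erAlec0 and erLor0 cells, each point being 1 library, with a dotted line at the log2 of 25 reads. ALDH3B1 ranges from 6.89 in erCriz0 to 8.80 in erAlec0 cells, ALDH1A3 stays between 8.75 and 9.08, and ALDH1A1 lies below the line in all 4 libraries.

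To compare genes, levels were set per kilobase of exon by subtracting the log2 of the summed exon length. On this scale the mean level over the 4 libraries was highest for ALDH1B1 (6.66) and ALDH1A3 (6.47), followed by ALDH3A2 (5.97), ALDH3B1 (5.27) and ALDH3B2 (5.25). ALDH2 (4.19), ALDH3A1 (3.93) and ALDH7A1 (3.80) followed, and ALDH1A1 (0.21) was last. The order of neighbours in this list depends on the library. On the same per-kilobase scale ALDH1B1 stood at 6.98 against 6.50 for ALDH1A3 in naive cells but at 6.47 against 6.66 in erCriz0 cells. ALDH3B1 stood at 5.49 against 5.24 for ALDH3B2 in naive cells but at 4.17 in erCriz0 cells, below both ALDH3B2 (4.82) and ALDH2 (4.59), and at 6.07 in erAlec0 cells, above ALDH3A2 (5.82). ALDH3A1, ALDH2 and ALDH7A1 stood at 3.93, 3.85 and 4.06 in naive cells and at 4.48, 4.59 and 3.52 in erCriz0 cells. Exon lengths include retained introns, which lowers the per-kilobase value of genes with long annotated transcripts such as ALDH7A1 and ALDH3A2.

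H3K27ac near these genes passed the limit mainly in erAlec0 and erLor0 cells. Of the 94 peaks, 3 (3.19%) rose in erCriz0 cells, where 7.00% of all peaks rose, and 0 fell, where 5.94% fell. In erAlec0 cells 18 (19.1%) rose and 0 fell, beside 14.1% and 9.41% of all peaks. In erLor0 cells 12 (12.8%) rose and 1 fell, beside 7.45% and 8.82%. The median H3K27ac difference over the 94 peaks was −0.03, 0.32 and 0.33, and that over all peaks was 0.00, 0.00 and 0.00. The 18 peaks that rose in erAlec0 cells belonged to 5 genes, 8 to ALDH7A1, 5 to ALDH1A3, 3 to ALDH1A1, 1 to ALDH1B1 and 1 to ALDH2. Neighbouring peaks of a gene share their surroundings and are not independent, 23 of the 94 peaks did not reach the log2 of 15 reads, 3.91, in any library, and 5 peaks, those of ALDH1A1, were paired with no other gene. By place, 7 of the 94 peaks covered the 5′ end of a member and 6 another transcript start of it, 16 touched an exon, 18 lay in introns, 20 upstream and 27 downstream.

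The sign of a member's RNA difference and that of the median difference of its peaks were the same for 6 of 8 expressed members in erCriz0 cells, for 1 in erAlec0 and for 5 in erLor0 cells. For the 7 members with a peak over the 5′ end, the signs of RNA and of that peak were the same for 4, 2 and 4. Over all lines together the signs were the same in 12 of 24 cases by the median and in 10 of 21 by the peak over the 5′ end. Several signs rest on differences near 0. In erAlec0 cells ALDH3B1 counted as opposite by a median of −0.09, although its RNA (0.58) and its 5′ peak (0.81) were both above naive cells. The same share over all expressed genes was not computed, so these counts describe the members only.

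ALDH3B1 showed the widest RNA range. It encodes an aldehyde dehydrogenase that is attached to membranes by lipid anchors and oxidizes medium- and long-chain aldehydes from lipid peroxidation. Its RNA levels were 8.21, 6.89, 8.80 and 8.07, so erCriz0 was low, erAlec0 high and the other two lines close together. Relative to naive cells it fell by 1.32 in erCriz0 cells, the 67th lowest difference of 12701 expressed genes, and differed by 0.58 in erAlec0 and −0.14 in erLor0 cells. The level in erAlec0 cells was 3.74-fold that in erCriz0 cells. The gene (ENSG00000006534.16, chr11:68008578-68029282, plus strand, hg38) lies in a region where 29 of 167 expressed genes within 5 Mb were above naive cells in erCriz0, and the difference of ALDH3B1 was the 7th lowest of these 167. The median of the other genes in this region was −0.26, against which ALDH3B1 stood at −1.06.

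The transcription start of ALDH3B1 lies inside a peak of 17099 bases, chr11:68005954-68023052, which covers most of the gene body. Its H3K27ac levels were 12.13, 11.62, 12.94 and 12.41, which gives differences of −0.51, 0.81 and 0.28. It was lowest in erCriz0 and highest in erAlec0 cells, as was the RNA, but no difference reached 1. The largest fall at the gene was a difference of −0.90 in erCriz0 cells at a short upstream peak, chr11:67999434-67999778, with H3K27ac levels of 4.74, 3.84, 4.63 and 4.47. Over the 10 peaks of ALDH3B1 the median differences were −0.12, −0.09 and −0.03, and those of the other peaks within 5 Mb were −0.17, −0.24 and −0.10. Of these 10 peaks, the last 2, which reach beyond the 3′ end of the gene or lie downstream of it, cover the starts of NDUFS8 and TCIRG1 and hardly differed between naive and erCriz0 cells (0.08 and −0.09). The 250 bases before the RefSeq start of ALDH3B1 (GRCh38.p14) are printed here because they are the promoter of the member whose RNA varied most. They are given 5′ to 3′ on the plus strand with chr11:68008297-68008546 as coordinates.
ALDH3B1: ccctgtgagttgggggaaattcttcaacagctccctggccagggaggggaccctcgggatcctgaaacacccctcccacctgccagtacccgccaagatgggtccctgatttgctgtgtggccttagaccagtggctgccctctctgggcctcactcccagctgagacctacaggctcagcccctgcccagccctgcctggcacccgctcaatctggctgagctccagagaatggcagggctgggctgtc
This window of 300 bases holds 4 CG pairs, where the median over 35116 RefSeq promoter windows was 14.0, and the window of a later start of ALDH3B1 holds 12. Neither GCGTG, the core bound by the aryl hydrocarbon receptor AHR, nor TGACNNNGC, the antioxidant response core, was found on either strand of these windows. Such a match was present in 36.5% and 13.3% of all promoter windows.

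ALDH3B2 (chr11:67662162-67681200), a close paralog of ALDH3B1 on the same chromosome, is known from lipid droplets. Reads of the 2 paralogs may have been exchanged in counting, so values of both are uncertain to that extent. Its RNA levels were 7.09, 6.68, 7.29 and 7.33, with erCriz0 again lowest and the differences −0.41, 0.20 and 0.25. The peak over its 5′ end, chr11:67678876-67684736, had H3K27ac levels of 9.71, 9.96, 9.16 and 9.54, so here erCriz0 was highest and erAlec0 lowest, unlike the RNA. A second broad peak, chr11:67672232-67676860, covers another start and differed by 0.48, 0.29 and 0.14, whereas a short peak over another start, chr11:67667933-67668175, differed by −0.63, −0.91 and −0.36. The 1 member peak that fell in erLor0 cells was an intronic peak of ALDH3B2, chr11:67668923-67669307, at levels of 4.84, 3.91, 4.29 and 3.84, and its difference of −1.0 is at the limit. The largest difference upward was 0.63, in erLor0 cells, at a downstream peak, chr11:67647705-67647959. Over its 23 peaks the medians were −0.39, −0.25 and −0.16, beside −0.16, −0.23 and −0.09 for other peaks within 5 Mb.

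ALDH2 and ALDH1B1 are mitochondrial enzymes that oxidize acetaldehyde, and ALDH2 also clears lipid peroxidation products such as 4-hydroxynonenal. RNA of ALDH2 (ENSG00000111275.13, chr12:111766887-111817532, plus strand) was at levels of 7.13, 7.87, 6.87 and 8.01. The erCriz0 and erLor0 libraries were high and the naive and erAlec0 libraries low. The differences were 0.74, −0.27 and 0.88, and none reached 1. In erLor0 cells the difference of ALDH2 was nevertheless the highest of the 69 expressed genes within 5 Mb and the 219th highest of 12701, and in erCriz0 cells it was the second highest of the 69. The medians of the other 68 genes were 0.03, −0.06 and −0.01. A protein-coding gene on the same strand overlaps ALDH2 in GENCODE release 44, and how the authors counted reads in the overlap is not given in the sources used here.

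At the 5′ end of ALDH2 H3K27ac was above naive cells in all 3 lines. The peak over the start, chr12:111765945-111769281, had levels of 6.83, 7.64, 7.70 and 8.15 and rose in erLor0 cells (1.32), with differences of 0.81 in erCriz0 and 0.87 in erAlec0 cells. The adjoining peak of 12659 bases, chr12:111769513-111782171, had levels of 10.39, 10.90, 11.08 and 11.47 and rose in erLor0 cells as well (1.08). Both peaks were highest in erLor0 and lowest in naive cells. An upstream peak, chr12:111755929-111759469, held the largest rise, 1.70 in erAlec0 cells, and rose by 1.21 in erLor0 but differed by −0.13 in erCriz0 cells, at levels of 6.44, 6.31, 8.14 and 7.65. A smaller upstream peak, chr12:111754496-111755246, had the lowest difference, −0.47 in erCriz0 cells. In erAlec0 cells the start peak and the upstream peak of ALDH2 were thus above naive cells while its RNA was 0.27 lower. Over the 7 peaks of ALDH2 the median differences were −0.13, 0.68 and 0.24, beside −0.02, 0.355 and 0.21 for the other 481 peaks within 5 Mb. Of these other peaks 25.8% rose in erAlec0 and 12.3% in erLor0 cells, so ALDH2 lies in a region in which many peaks gained H3K27ac in erAlec0 cells.

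**Figure D2:**
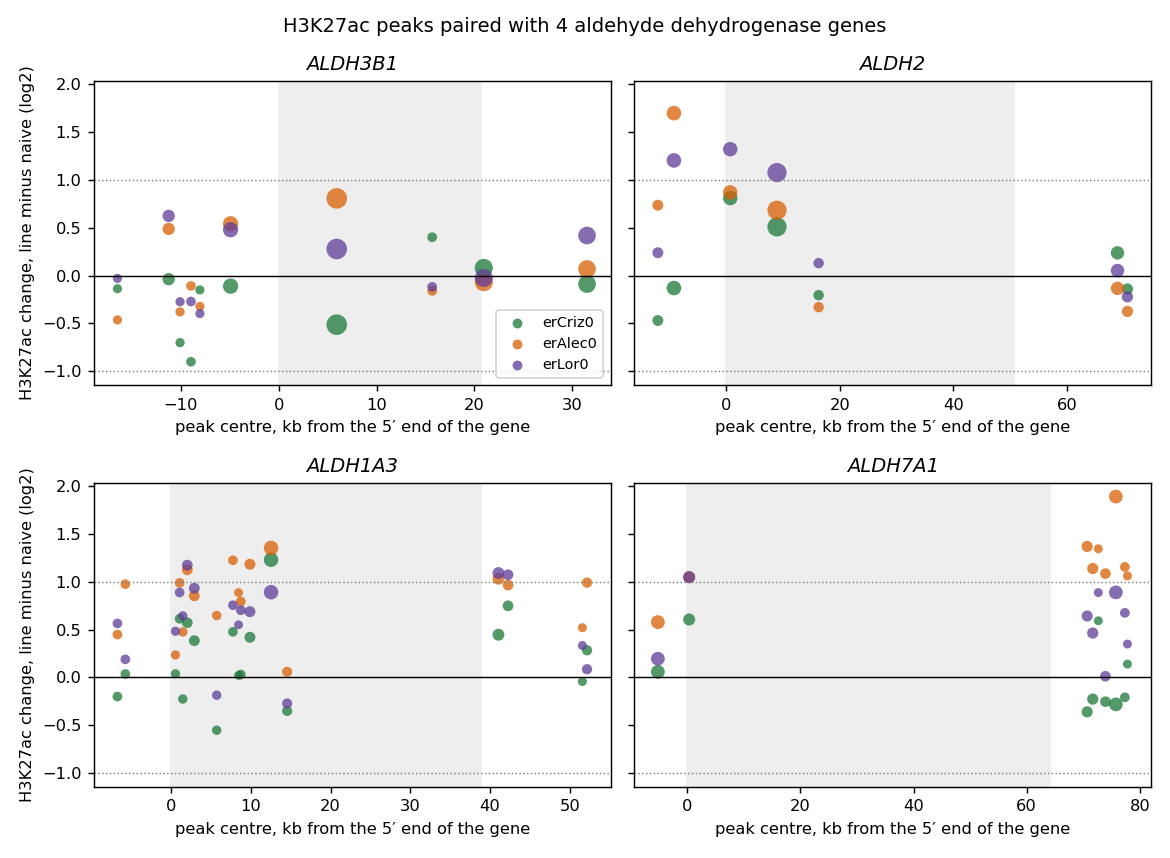
H3K27ac differences (log2, y axis) of each peak paired with ALDH3B1, ALDH2, ALDH1A3 and ALDH7A1 against the distance of the peak's centre from the gene's 5′ end (kilobases, x axis), with each point 1 peak in 1 line, larger points for longer peaks, grey shading over the gene and dotted lines at 1 and −1. The downstream peaks of ALDH7A1 lie between 1.06 and 1.89 in erAlec0 cells, and the broad peak of ALDH3B1 lies at −0.51 in erCriz0 and 0.81 in erAlec0 cells.

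ALDH1B1 (ENSG00000137124.8, chr9:38392702-38398661, plus strand) had RNA levels of 8.62, 8.11, 8.06 and 8.42. Naive cells were highest, and the differences were −0.51, −0.56 and −0.21. Its difference in erAlec0 cells was the 6th lowest of 61 expressed genes within 5 Mb, where the median of the others was 0.01, and in a window of 2 Mb that median was −0.24. The peak over its start, chr9:38392271-38393769, had H3K27ac levels of 6.94, 6.68, 7.00 and 7.48 and did not reach a difference of 1 in any line. An upstream peak, chr9:38380338-38382480, rose by 1.58 in erCriz0 and by 1.04 in erAlec0 cells, with a difference of 0.47 in erLor0 cells, and had levels of 5.82, 7.40, 6.86 and 6.29. This upstream peak and the RNA of ALDH1B1 therefore differed in opposite directions in all 3 lines. The lowest difference was −0.39, in erLor0 cells, at the weak neighbouring peak chr9:38379685-38379966.

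ALDH1A3 and ALDH1A1 are cytosolic retinaldehyde dehydrogenases and the isoforms most often linked to the enzyme activity that marks stem-like lung cancer cells. ALDH1A3 (ENSG00000184254.17, chr15:100877714-100916626, plus strand) was the second most abundant member per kilobase by its mean over the 4 libraries and the most abundant in erCriz0 cells, with RNA levels of 8.91, 9.08, 8.75 and 8.82. These 4 levels span 0.33, the smallest range among the expressed members, and the differences were 0.16, −0.17 and −0.10. Genes annotated as long non-coding RNA overlap ALDH1A3, among them the antisense gene ALDH1A3-AS1, and reads of both strands could not be told apart where counting did not use the strand.

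In contrast to this level RNA, H3K27ac at ALDH1A3 was above naive cells in erAlec0 cells at all 18 of its peaks, and in erLor0 cells at 16 of 18. The median differences over the 18 peaks were 0.16, 0.93 and 0.66, beside 0.08, 0.28 and 0.11 over the other 230 peaks within 5 Mb. In erAlec0 cells 5 of the 18 peaks rose, in erLor0 cells 3 and in erCriz0 cells 1, beside 14.8%, 6.96% and 11.7% of those other peaks. The peak over a start of the gene, chr15:100879413-100880084, rose from 4.46 in naive cells to 5.59 in erAlec0 and 5.64 in erLor0 cells and was at 5.03 in erCriz0 cells. The strongest peak, in an intron at chr15:100888537-100891966, had levels of 7.63, 8.86, 8.98 and 8.52 and rose in erCriz0 (1.23) and erAlec0 cells (1.35). The lowest difference was −0.55, in erCriz0 cells, at the intronic peak chr15:100883291-100883583. A peak just downstream, chr15:100918156-100919380, rose in erAlec0 (1.03) and erLor0 cells (1.09) and covers the start of the next gene, LRRK1.

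The bases before the RefSeq start of ALDH1A3 are printed because this start lies inside a peak that rose in 2 lines while the RNA differed by at most 0.17 in size. They are given 5′ to 3′ on the plus strand (GRCh38.p14, chr15:100879581-100879812), with the 2 matches to the AHR core GCGTG, on either strand, in capitals.
ALDH1A3: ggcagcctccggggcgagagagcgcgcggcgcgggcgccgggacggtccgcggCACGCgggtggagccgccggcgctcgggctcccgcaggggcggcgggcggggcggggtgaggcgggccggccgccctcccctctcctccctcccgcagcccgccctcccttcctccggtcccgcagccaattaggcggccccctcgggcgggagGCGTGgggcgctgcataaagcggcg
The window of 300 bases holds 46 CG pairs, the most among the 8 windows of the 6 members that matched a RefSeq promoter, and no TGACNNNGC. Those of ALDH1B1, ALDH7A1 and ALDH1A1 hold 27, 17 and 7 CG pairs, and the 2 windows of ALDH3A2 hold 12 and 27. Apart from ALDH1A3, only the second window of ALDH3A2 holds GCGTG, also with 2 matches, and none of the 8 windows holds TGACNNNGC. Promoter sequences of ALDH2, ALDH3A1 and ALDH3B2 are not printed.

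ALDH1A1 (ENSG00000165092.13, chr9:72900671-73080442, minus strand) was not expressed by the limit used here. Its RNA levels were 1.62, 1.66, 1.85 and 1.75, with no library standing out. Nevertheless 3 of its 5 peaks rose in erAlec0 cells. These 3 lie side by side in an intron of the gene model, upstream of the RefSeq start, at chr9:72977888-72978269 (1.38), chr9:72978423-72978613 (1.11) and chr9:72978968-72979709 (1.56). The last of them had H3K27ac levels of 3.85, 3.90, 5.41 and 4.12 and was the only peak of ALDH1A1 to reach 3.91, so these are weak peaks. The erAlec0 library was high at each of the 3 and the other libraries were close together. The lowest difference was −0.74, in erLor0 cells, at chr9:72955272-72955544. Of the other 521 peaks within 5 Mb, 12.1% rose in erAlec0 cells, and their median difference was −0.07 against 1.11 for the 5 peaks of ALDH1A1. The RefSeq start of ALDH1A1 lies in no peak. The middle peak is printed whole as an example of these 3, on the plus strand of hg38, chr9:72978423-72978613.
ALDH1A1 intronic peak: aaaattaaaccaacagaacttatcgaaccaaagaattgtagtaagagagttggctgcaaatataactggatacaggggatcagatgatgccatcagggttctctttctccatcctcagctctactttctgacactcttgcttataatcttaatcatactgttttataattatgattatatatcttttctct
TGANTCA, the core bound by AP-1, was searched in all peaks on both strands and is not in this one. It was found in 25 of the 94 member peaks (26.6%) and in 26.1% of all 126470 peaks. Among the 17874 peaks of 150 to 250 bases, a length class that includes the printed peak, it was found in 6.32%. Its absence from so short a peak is therefore common.

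ALDH3A1 and ALDH3A2 lie close to each other on the short arm of chromosome 17. ALDH3A1 oxidizes aromatic and medium-chain aldehydes, is a known target of AHR and inactivates oxazaphosphorine drugs, and ALDH3A2 is the fatty aldehyde dehydrogenase of the endoplasmic reticulum. RNA of ALDH3A1 (ENSG00000108602.18, chr17:19737984-19748943, minus strand) was at levels of 5.89, 6.43, 5.28 and 5.95, high in erCriz0 and low in erAlec0 cells. The differences were 0.54, −0.60 and 0.06. ALDH3A2 (ENSG00000072210.19, chr17:19648136-19685760, plus strand) was at 9.97, 9.78, 9.76 and 10.13, with differences of −0.19, −0.21 and 0.16. The antisense gene SLC47A2 overlaps ALDH3A2, so its counts are uncertain where strand was not used.

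RNA of both genes differed from that of their surroundings in erAlec0 cells. Of the 74 expressed genes within 5 Mb, 68 were above naive cells in erAlec0 and 32 of these rose, with a median of 0.90 over the genes other than the member. ALDH3A1 had the lowest difference of all 74 in erAlec0 cells and ALDH3A2 the 4th lowest, which put them at −1.51 and −1.12 against that median. In erLor0 cells 65 of the 74 were above naive cells, with a median of 0.40, and the differences of ALDH3A1 and ALDH3A2 were the 13th and 20th lowest. In erCriz0 cells 26 of 74 were above naive cells, and the difference of ALDH3A1 was the 4th highest. H3K27ac of the region was also higher, and 32.0% of the other 665 peaks around ALDH3A1 rose in erAlec0 cells with a median difference of 0.73. DNA copy number was not measured in these files, and its part in these regional differences was not tested.

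Peaks paired with ALDH3A1 did not share the regional rise of H3K27ac in erAlec0 cells, since 0 of these 10 peaks rose there and their median difference was −0.07. Of the 10 peaks 7 lay downstream of the gene and were paired with other genes as well. The peak over its 5′ end, chr17:19747266-19754121, had levels of 9.67, 10.01, 9.37 and 9.82, with the 4 lines in the same order as for the RNA. The peak over another start, chr17:19744961-19746595, had the lowest difference, −0.43 in erAlec0 cells. The largest rise was 1.22, in erCriz0 cells, at the downstream peak chr17:19734120-19734823, which stood at 4.62, 5.83, 4.63 and 4.94. ALDH3A2 was unlike ALDH3A1 in H3K27ac. Median differences over its 9 peaks were −0.04, 0.73 and 0.94, beside 0.01, 0.72 and 0.29 for other peaks within 5 Mb. In erLor0 cells 4 of these 9 rose, where 11.2% of the other 668 peaks around it did, and all 9 were above naive cells, with the largest rise, 1.30, at chr17:19660617-19661429. Among the 4 was the peak over another start, chr17:19659136-19660438, at levels of 5.55, 5.20, 6.43 and 6.71. At the 5′ end of ALDH3A2, chr17:19646539-19652446, the differences were 0.40, 0.58 and 0.51, and at the third start peak, chr17:19671923-19673355, 0.36, 0.73 and 0.94. The lowest difference was −0.36, in erCriz0 cells, at chr17:19663620-19664103. H3K27ac of ALDH3A2 in erLor0 cells was thus 0.65 above the median of the other 668 peaks of the region, while its RNA difference of 0.16 stood at −0.24 against the median of the other genes, or at −0.43 in a window of 2 Mb.

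**Figure D3:**
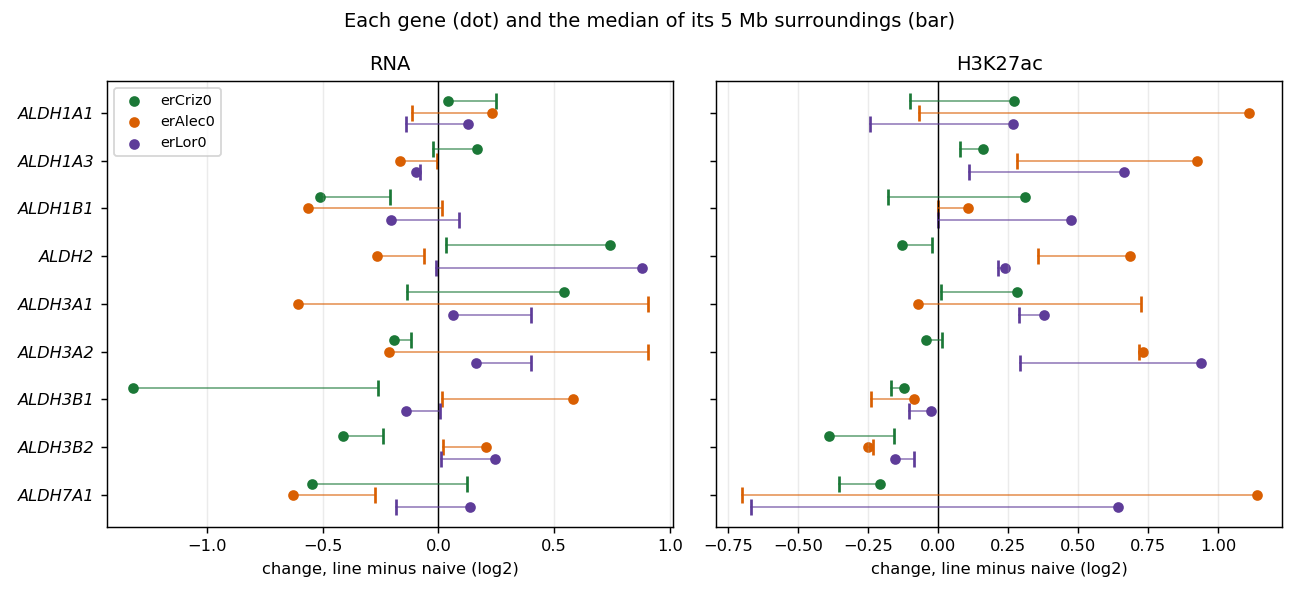
Differences from naive cells (log2, x axis) of RNA (left) and H3K27ac (right) for each aldehyde dehydrogenase gene (y axis) in 3 resistant lines, where a dot is the gene or the median of its peaks and a bar is the median of other expressed genes or other peaks within 5 Mb. In erAlec0 cells ALDH3A1 lies at −0.60 against 0.90 for the RNA of its surroundings, and ALDH7A1 at 1.14 against −0.70 for H3K27ac.

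ALDH7A1 (ENSG00000164904.18, chr5:126531200-126595362, minus strand), known as antiquitin, oxidizes α-aminoadipic semialdehyde in lysine breakdown and betaine aldehyde in the synthesis of the osmolyte betaine. Its RNA levels were 8.23, 7.68, 7.60 and 8.36. The erCriz0 and erAlec0 libraries were low and the erLor0 library was near that of naive cells, with differences of −0.54, −0.63 and 0.13. In erCriz0 cells this was the 3rd lowest difference of 24 expressed genes within 5 Mb. In erAlec0 cells it was the 6th lowest, and 4 of the 24 genes were above naive cells there. The median of the other genes in erAlec0 cells was −0.27, against which ALDH7A1 stood at −0.35.

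H3K27ac at ALDH7A1 rose in erAlec0 cells at 8 of 9 peaks, with a median difference of 1.14. Of the other 518 peaks within 5 Mb 2.90% rose in erAlec0 cells, and their median difference was −0.70. In erLor0 cells the median was 0.64 at ALDH7A1 and −0.67 in the region, and 1 of the 9 peaks rose. In erCriz0 cells it was −0.21 and −0.36. The peak over the start, chr5:126594392-126595706, had levels of 5.70, 6.30, 6.75 and 6.74 and rose in erAlec0 (1.05) and erLor0 cells (1.05). The remaining peaks that rose in erAlec0 cells were 7 neighbours between positions 126517450 and 126525098, 6102 to 13554 bases beyond the 3′ end of the gene, and each was paired with 2 or 3 genes in all. These 7 peaks differed by 1.06 to 1.89 in erAlec0, by 0.01 to 0.89 in erLor0 and by −0.36 to 0.59 in erCriz0 cells. The strongest of them, chr5:126518298-126520900, held the largest rise of any member peak, from 6.31 in naive cells to 8.20 in erAlec0 cells, with 6.03 in erCriz0 and 7.20 in erLor0 cells. The lowest difference, −0.36 in erCriz0 cells, was at chr5:126524244-126525098. An upstream peak over the start of the neighbouring gene PHAX differed by 0.06, 0.58 and 0.19. RNA of ALDH7A1 in erAlec0 cells was thus 0.63 below naive cells while its start and the downstream cluster had gained H3K27ac.

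The part of the promoter window of ALDH7A1 that no annotated exon covers is printed, as it lies inside the start peak that rose in 2 lines. It is given 5′ to 3′ on the minus strand, GRCh38.p14, chr5:126595363-126595469.
ALDH7A1: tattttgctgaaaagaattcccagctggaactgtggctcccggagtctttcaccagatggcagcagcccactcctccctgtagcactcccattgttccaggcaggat
Neither GCGTG nor TGACNNNGC was found in the ALDH7A1 window.

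Of 10 other ALDH genes with values 7 were expressed, and 0 rose and 0 fell in any line, where so few genes would give few calls at the shares of all expressed genes named above. Their median differences were −0.05, −0.07 and −0.23. ALDH6A1, which acts in valine breakdown, had the largest difference, 0.52 in erAlec0 cells, at RNA levels of 8.46, 8.23, 8.99 and 8.82. ALDH1A2, the third retinaldehyde dehydrogenase, was near the limit of expression at 4.61, 4.86, 4.32 and 4.37. RNA of ALDH18A1, which makes proline, lay between 9.44 and 9.64, of ALDH5A1, which breaks down GABA, between 7.67 and 7.92, and of ALDH9A1, which oxidizes aminoaldehydes, between 7.37 and 7.56. ALDH16A1 lay between 5.98 and 6.29 and ALDH4A1, of proline breakdown, between 5.43 and 5.69. ALDH1L1, ALDH1L2 and ALDH8A1 stayed below 4.64 in all 4 libraries.

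Around the retinaldehyde dehydrogenases, the genes of retinoid handling were mostly lower in the resistant lines. Of 29 listed genes 28 had values and 17 were expressed. In erCriz0 cells 3 rose and 2 fell, in erAlec0 cells 0 rose and 1 fell, and in erLor0 cells 0 rose and 3 fell, beside the shares of all expressed genes given above. The median differences were −0.34, −0.29 and −0.31, and 12, 13 and 15 of the 17 genes were below naive cells. The retinol transporter STRA6 had RNA levels of 9.51, 8.41, 8.26 and 8.65, so it fell in erCriz0 (−1.10) and erAlec0 cells (−1.25) and differed by −0.86 in erLor0 cells. CRABP2, which delivers retinoic acid to its receptors, fell in erCriz0 cells (−1.11) from a naive level of 10.94. FABP5, which also binds retinoic acid, fell in erLor0 cells (−1.06) from 9.20. These 3 transport or bind retinoids, and each was highest in naive cells, whereas LRAT, which stores retinol as esters, was lowest in naive cells (5.28, 5.53, 5.39 and 5.38).

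Of the 8 expressed enzymes that interconvert retinol and retinaldehyde, 4 were below naive cells in all 3 lines without passing the limit, namely RDH10, RDH11 (−0.17, −0.39 and −0.21), DHRS3 (−0.73, −0.62 and −0.79) and DHRS4 (−0.50, −0.29 and −0.17). DHRS9 had RNA levels of 6.97, 8.08, 6.61 and 5.78 and rose in erCriz0 (1.11) but fell in erLor0 cells (−1.19). SDR16C5 rose in erCriz0 cells (1.31) and was within 0.21 of naive cells in the other two lines. RDH10, the main retinol dehydrogenase of development, had the highest level of these enzymes, 12.46 in naive cells, and was at 11.51 in erLor0 cells. TGM2, a retinoic acid target that responds to many other signals, had levels of 9.76, 12.19, 10.00 and 8.60 and thus rose in erCriz0 (2.43) and fell in erLor0 cells (−1.16). RARA, RARG, RXRA and RXRB were expressed and stayed within 0.86 of naive cells. RARB, itself a retinoic acid target, was listed at 0 in all 4 libraries, and CYP26A1, CYP26B1 and CYP26C1, which degrade retinoic acid, stayed at or below 2.54.

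**Figure D4:**
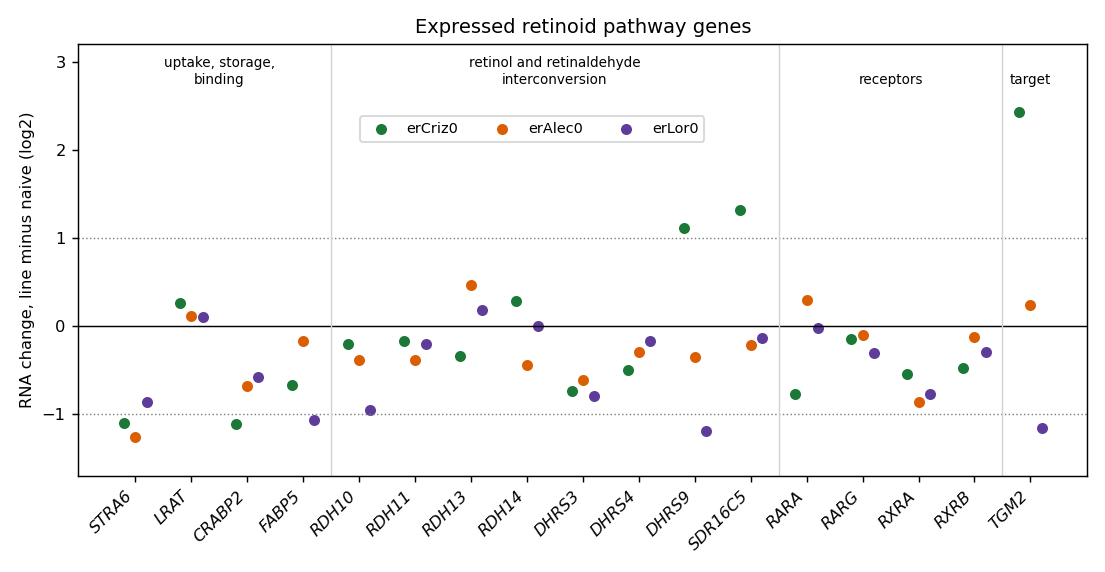
RNA differences from naive cells (log2, y axis) of the 17 expressed genes of retinoid handling (x axis, grouped by role) in erCriz0, erAlec0 and erLor0 cells, each point being 1 library against the naive library, with dotted lines at 1 and −1. STRA6, CRABP2 and FABP5 lie below 0 in all 3 lines, while TGM2 lies at 2.43 in erCriz0 and −1.16 in erLor0 cells.

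In the AHR group, which holds known regulators and partner genes of ALDH3A1, 6 of 9 genes were expressed. Of these, 0 rose in any line, and 1, 1 and 0 fell, beside the shares of all expressed genes given above. CYP1A1, the typical AHR target, had RNA levels of 7.38, 6.37, 7.54 and 7.94, and its difference of −1.0 in erCriz0 cells was at the limit and smaller than 1 under other scalings (−0.95 after centring and −0.96 after quantile normalization). CYP1B1 and TIPARP, also AHR targets, did not pass the limit. Their differences were 0.71, −0.24 and 0.29 for CYP1B1 and 0.85, 0.64 and 0.12 for TIPARP. NQO1, a quinone reductase controlled by AHR and NRF2, fell in erAlec0 cells (−1.32), at levels of 11.74, 11.36, 10.42 and 11.06. AHR itself was at 10.69, 11.05, 10.50 and 10.17.

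Among enzymes that release or consume fatty aldehydes, the substrates of ALDH3A2, 7 of 8 genes were expressed. FAR2, which makes fatty alcohols, rose in erCriz0 cells (1.23) at levels of 7.28, 8.51, 7.20 and 6.97, and 0 fell. In the group of lysine and choline breakdown, the pathways of ALDH7A1, 5 of 7 genes were expressed. AASS, the first enzyme of the saccharopine route, whose product is passed on to ALDH7A1, had levels of 6.56, 7.37, 8.64 and 7.10. AASS rose in erAlec0 cells (2.08). RNA of ALDH7A1 was low there (7.60) and about as low in erCriz0 cells (7.68), where AASS differed by 0.81. Of 16 alcohol and carbonyl oxidoreductases 11 had values, 7 were expressed and 0 rose or fell, the largest difference being 0.88 for AKR7A3 in erCriz0 cells. At the shares of all expressed genes given above, groups as small as these would give few calls.

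For the 3 members whose RNA spanned at least 1, the expressed genes outside 5 Mb with the most similar profile were sought by the Euclidean distance between the 4 levels after subtracting each gene's mean. With 4 libraries such a likeness is a description only. Closest to ALDH3B1 were PCED1B, KRT80 and H1-10, each at a distance of 0.24, and only 3 genes lay within 0.3. KRT80 had RNA levels of 10.02, 8.93, 10.67 and 10.18. Closest to ALDH2 were ADGRL2 (0.10), SH3PXD2B (0.17) and ENSG00000269968 (0.27), also with 3 genes within 0.3. ADGRL2 stood at 7.71, 8.42, 7.45 and 8.70. ALDH3A1 had a commoner profile, with 68 genes within 0.3, led by EML6 (0.10), GALNT5 (0.11) and PABPC4L (0.12).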

How the data were processed

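Naive H3122, erCriz0, erAlec0 and erLor0 cells were compared by RNA-seq and by ChIP-seq for H3K27ac, each from 1 library per line. erCriz1, erLor1, Lor 2w and the pooled input DNA of the 8 samples were not analysed here.

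The authors deposited 1 table that joins peaks to genes up to 20000 bases away, in 295240 pairs, and its values for both are on a log2 scale (DESeq2 rlog). MiSeq reads of RNA had been mapped by HISAT2 (hg38) and assigned to genes by HTSeq-count. ChIP-seq reads had been mapped by BWA (hg38) and freed of duplicates and of low mapping quality, peaks had been called by MACS2, merged across 4 samples with bedtools and filtered against the blacklist, and featureCounts had counted reads in them. RSeQC had served to check strandedness, but the strand setting of counting, tool versions and any subtraction of input are not given in the sources used here. The rlog transformation shrinks differences of features with few reads, and read totals cannot be recovered from it, so the precision of single values is unknown. The table also holds the authors' means, a correlation of each pair and its p-value and adjusted p-value, which were not used.

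Differences, medians over peaks and over surroundings of 5 Mb, and counts at a limit of 1 were computed with Python 3.11.15, numpy 2.4.6 and pandas 2.3.3, figures were drawn with matplotlib 3.10.9, and the scripts were tested on simulated data. No test between lines was run, and 1 gene considered for the retinoid list is not reported here. Gene and exon positions came from GENCODE release 44 on hg38 and promoters from RefSeq (GRCh38.p14). The members and gene lists were chosen with earlier results of these data known. Named are all members and other ALDH genes, the genes of each list that passed the limit or else the one of largest difference, the start peaks and the highest and lowest peak of each member, and the 3 genes most like each member whose RNA spans 1. RARA, RARG, RXRA, RXRB, RARB, RDH10, RDH11, DHRS3, DHRS4, LRAT, CYP1B1, TIPARP, AHR, the CYP26 genes and the marker genes were named in addition after their values were seen. Other limits, pairings, scalings and a window of 2 Mb were tried.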

Additional observations from a re-analysis of the deposited data

Results flagged for a closer look

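Some genes differed from naive cells by at least 0.5 upward in 1 resistant line and by at least 0.5 downward in another. With 1 library per line these differences between lines were not tested. Among the aldehyde dehydrogenases ALDH3A1 was higher in erCriz0 (0.54) and lower in erAlec0 cells (−0.60), and ALDH3B1 was higher in erAlec0 (0.58) and lower in erCriz0 cells (−1.32). Of the retinoid genes DHRS9 stood at 1.11 in erCriz0 and −1.19 in erLor0 cells and TGM2 at 2.43 and −1.16. AKR7A3, an aflatoxin aldehyde reductase, differed by 0.88 in erCriz0 and −0.73 in erAlec0 cells. CYP1A1 was at 0.56 in erLor0 and −1.0 in erCriz0 cells, and the epithelial keratin KRT7 at 0.69 in erAlec0 and −0.53 in erCriz0 cells.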

How the results depend on the processing

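No value past the limit changed direction under the alternatives run. At a limit of 1.5-fold (0.58 on the log2 scale) 1 member counted as up in erCriz0 and 1 in erLor0 cells, and 2 as down in erAlec0 cells, while the peaks counted as up became 10, 35 and 28 in erCriz0, erAlec0 and erLor0 cells and those counted as down 7, 1 and 3. At a limit of 2 on the log2 scale 0 members fell in erCriz0 cells, the peaks that rose were 0, 0 and 0, and 0 fell in erLor0 cells. With ALDH1A1 included the median RNA difference in erCriz0 cells was −0.19. Peaks paired with 1 gene, which leaves the 5 of ALDH1A1, gave 0, 3 and 0 rises, 0 falls in erLor0 cells and median differences of 0.27 in erCriz0 and 1.11 in erAlec0 cells. Peaks within 5 kb gave 9 rises and a median of 0.48 in erAlec0 cells. Centring each library on its median gave 0 peaks down and a median of 0.43 in erLor0 cells, and quantile normalization also gave 0 peaks down there. Centring moved RNA differences by 0.05, 0.03 and 0.02 and peak differences by 0.08, −0.02 and 0.10. Under centring and quantile normalization, which were added for the list genes after the data were seen, 0 of 54 member values changed their call and 3 of 534 values of list genes did, CYP1A1 under both and RDH10 in erLor0 cells (−1.03 under quantile normalization). In a window of 2 Mb 17 of 54 differences from the surroundings moved by at least 0.1, among them RNA of ALDH1B1 in erAlec0 cells (from −0.58 to −0.32) and of ALDH3A2 in erLor0 cells (from −0.24 to −0.43). No paired analysis was possible because each line has 1 library. The depth is unknown, so no counting error limits were given.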
